A study of Danio rerio with 25 samples.

Results

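The miR-34 family was followed in the brain of male zebrafish (Danio rerio) over 5 ages. Its members were the count table entries dre-mir-34a, dre-mir-34b and dre-mir-34c, called miR-34a, miR-34b and miR-34c here, each of which has a single entry, so that 3 of the 217 miRNAs in the table belong to the family. All 3 passed the filter on low counts, which kept 197 miRNAs. Small RNA was sequenced at 6, 12, 24, 36 and 42 months, with 5 libraries per age and 25 in all. The fish were of strain AB JxTü at 6 and 24 months, of AB JxTü Tg(flk:mCherry) at 12 months, of AB JxTü Tg(pu.1:GFP) at 36 months and of AB JxTü Tg(wt1a:GFP) at 42 months. Transgenic line and age can therefore not be told apart, other than at 24 against 6 months, where no transgene is named in either age. Each title carries a number that no other library has, or a pair of such numbers in the 6-month libraries. Whatever the pairs mean can thus not be told apart from age in any comparison with 6 months, 24 against 6 months included. The labels do not say what these numbers stand for, whether brains were pooled, or that the libraries of an age came from separate fish. If they did not, the p-values speak only of library-to-library spread, which may be technical.

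miR-34 is known in mammals as a direct target of the tumour suppressor p53 that slows the cell cycle and favours cell death. In mammals miR-34a has a gene of its own, while miR-34b and miR-34c are cut from a shared primary transcript and are abundant in cells that carry many motile cilia. miR-34 has also been studied in ageing brain, in mice and in flies. In the RefSeq gene table of zebrafish (assembly GRCz12tu) all 3 members were found. The genes of miR-34b and miR-34c lay on the same chromosome with 0 genes between them, and that of miR-34a lay on another chromosome. The counts were made per hairpin, the folded precursor that holds both mature arms, so that no arm can be named. The treatment of reads that match both miR-34b and miR-34c is not stated.

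The lone miR-34a was the member with the most counts and passed no test between ages. The mean levels of miR-34b and miR-34c were highest at 6 months. At 42 against 6 months the log2 change was -1.25 for miR-34b and -1.44 for miR-34c, both past the test, and -0.19 for miR-34a, which did not pass it. miR-34b and miR-34c were high in the same libraries, and these were also rich in miRNAs known from epithelia and sensory cells. With the level of those other miRNAs in the model the change of the pair at 42 against 6 months no longer passed. The sensory miRNAs were chosen for this after their likeness to the pair was seen. Calls over all miRNAs in this comparison also fell, from 70 to 22 with epithelial and skin miRNAs and to 20 with sensory miRNAs. The slope of miR-34b on age still passed with the epithelial and skin miRNAs in the model, while that of miR-34c did not. Neither slope passed with the sensory miRNAs in the model, nor without the 6-month group. The difference between miR-34a and the pair, tested directly as a ratio within each library, did not pass the test after adjustment.

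Levels are given as CPM, each count relative to the library's total after scaling with TMM factors, which correct for differences in composition. The total miRNA count was between 3983783 and 20924118 per library. miR-34a had between 1527 and 6157 counts per library, miR-34b between 270 and 1984 and miR-34c between 216 and 2018. Counting error was small beside the spread between libraries: the lowest count of miR-34b, 270, has an exact 95% Poisson interval of 239 to 304, and the lowest of miR-34c, 216, one of 188 to 247. These intervals cover counting error only, since reads copied by PCR are not independent molecules. By mean CPM over the 25 libraries miR-34a ranked 108 of 197 at 349 CPM, miR-34b ranked 147 at 86.4 CPM and miR-34c ranked 148 at 84.1 CPM. Counts of different hairpins are set side by side here and are not molar levels.

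miR-34a, the member with its own gene, had 397, 382, 313, 373 and 394 CPM in the 5 libraries at 6 months. At 12 months it had 281, 353, 356, 285 and 406 CPM. At 24 months it had 437, 371, 341, 543 and 279 CPM. The highest and one of the lowest values of miR-34a thus stood side by side at 24 months, and that age had the widest range. At 36 months miR-34a had 300.1, 325, 303, 317 and 351 CPM, and at 42 months 282, 318, 326, 276 and 424 CPM. The 6-month mean was 372 ± 34.1 CPM, that of 12 months 336 ± 53 CPM and that of 24 months 394 ± 101 CPM, followed by 319 ± 20.7 CPM for 36 months and 325 ± 59.1 CPM for 42 months (SD, n = 5 each).

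miR-34b, a member of the neighbouring pair, had 259, 66.1, 100.04, 123 and 213 CPM in the 5 libraries at 6 months. At 12 months it had 94.8, 53.9, 72.4, 86.6 and 59.4 CPM. The top of the 6-month range lay in replicates 1 and 5, while replicate 2 at 6 months was within the range at 12 months. At 24 months miR-34b had 100.6, 67.0, 91.0, 52.3 and 59.8 CPM. At 36 months it had 142, 41.4, 48.2, 50.3 and 60.3 CPM, and at 42 months 53.8, 81.3, 65.3, 70.3 and 49.4 CPM. Replicate 1 at 36 months stood apart from the other 4 libraries of its age. The 6-month mean was 152 ± 80.9 CPM, that of 12 months 73.4 ± 17.4 CPM and that of 24 months 74.1 ± 20.7 CPM, followed by 68.4 ± 41.5 CPM for 36 months and 64.0 ± 12.8 CPM for 42 months (SD, n = 5 each).

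miR-34c, the other member of the pair, had 264, 62.4, 95.5, 110 and 213 CPM in the 5 libraries at 6 months. At 12 months it had 91.4, 66.6, 79.1, 99.0 and 62.5 CPM. The libraries at the top were those of miR-34b, replicates 1 and 5 at 6 months. At 24 months miR-34c had 95.8, 67.3, 74.1, 41.5 and 49.1 CPM. At 36 months it had 164, 30.7, 51.7, 52.9 and 57.2 CPM, and at 42 months 47.1, 73.5, 56.0, 56.5 and 41.1 CPM. Replicate 1 at 36 months was again far above the rest of its age. The 6-month mean was 149 ± 85.4 CPM, that of 12 months 79.7 ± 15.6 CPM and that of 24 months 65.5 ± 21.4 CPM, followed by 71.3 ± 52.9 CPM for 36 months and 54.8 ± 12.2 CPM for 42 months (SD, n = 5 each).

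**Figure D1:**
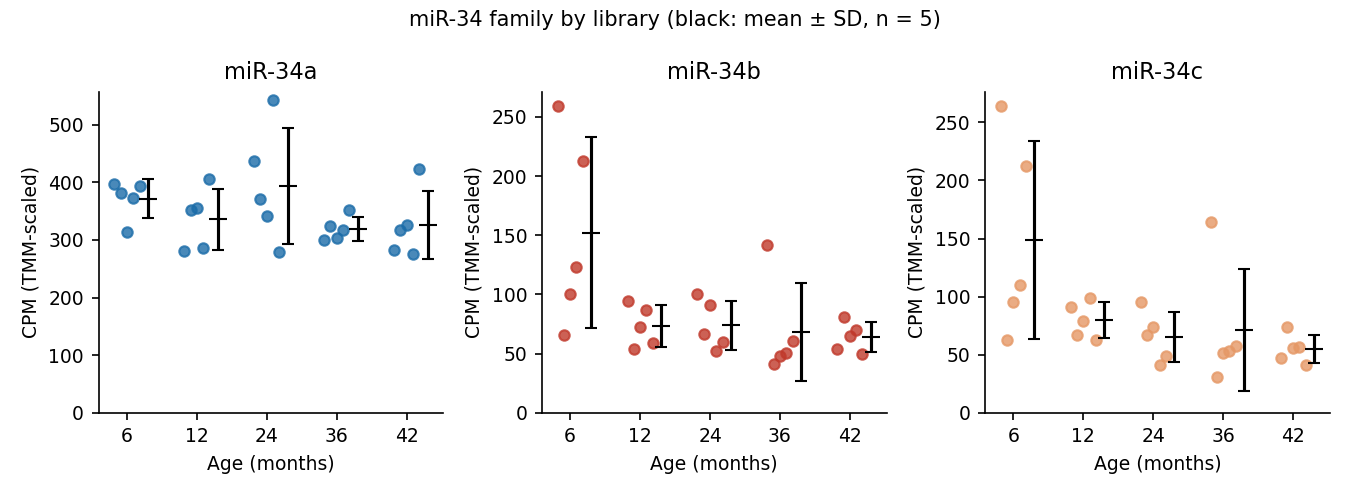
CPM of miR-34a, miR-34b and miR-34c (vertical axes, each from 0) in each of the 25 libraries by age in months, with the mean and SD over 5 libraries in black. miR-34a stays between 276 and 543 CPM at all ages, while 2 libraries at 6 months and 1 at 36 months stand above the others for both miR-34b and miR-34c.

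The spread followed the same division, mostly through 6 and 36 months. Over all libraries the highest level of miR-34a was 1.96 times the lowest, against 6.27 times for miR-34b and 8.59 times for miR-34c. The coefficient of variation between libraries of an age, as edgeR estimates it beyond counting error, was 19.8% for miR-34a, beside a median of 20.7% over all 197 miRNAs. It was 39.3% for miR-34b and 43.6% for miR-34c, ranks 44 and 39 of 197 from the most variable. At 36 months the SD of miR-34b was 60.7% of its mean, and 15.7% over the 4 libraries without replicate 1.

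Whether the members differed between ages was tested with edgeR's quasi-likelihood F test on all 25 libraries, with Benjamini-Hochberg adjustment over the 197 miRNAs. Called means an adjusted p below 0.05. For any difference between the 5 ages miR-34b (adjusted p 0.0198) and miR-34c (0.0254) were called and miR-34a (0.269) was not, in a test that called 47.7% of all miRNAs. A straight line on age had a slope of -0.33 log2 units per year for miR-34b (SE 0.10, adjusted p 0.0183) and of -0.37 for miR-34c (SE 0.11, adjusted p 0.0146). The slope of miR-34a was -0.06 (SE 0.04, adjusted p 0.351). The trend test called 21.3% of miRNAs, and 13.7% as falling. Departure from the line did not pass the test for any member (adjusted p 0.345 for miR-34a, 0.179 for miR-34b and 0.314 for miR-34c, unadjusted p 0.0918 or above), in a test that called 25.9%.

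The called slopes of the pair depended on the 6-month group, although departure from the line was not called. A further fall among the later ages was not excluded. For miR-34c at 42 against 12 months an interval of 2 SE on either side ran from -1.32 to 0.24. Without the 6-month group the slope was -0.08 for miR-34b (SE 0.11, adjusted p 0.782) and -0.16 for miR-34c (SE 0.12, adjusted p 0.499), and neither was called. Without the 42-month group the slopes were -0.41 and -0.40, with adjusted p-values of 0.0670 for miR-34b and 0.0934 for miR-34c. Without replicate 1 at 6 months the adjusted p of the slope was 0.0752 for miR-34b, at -0.24, and 0.0585 for miR-34c, at -0.28. Without replicate 5 at 6 months that of miR-34b was 0.0568, at -0.27. Leaving out any other single library kept both calls. The test of any difference between ages was lost for both without either of these libraries, with adjusted p-values between 0.0731 and 0.133, and with limma-voom (0.0660 for miR-34b, 0.0740 for miR-34c).

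Of the ages set against 6 months, 42 months had the largest change in both members of the pair, an order that rested on replicate 1 at 36 months: without it the changes at 36 months (-1.60 and -1.62) were beyond those at 42 months (-1.24 and -1.44). At 42 months miR-34b averaged 64.0 CPM, against 152 CPM at 6 months, a log2 change of -1.25 (SE 0.35, adjusted p 0.0112). miR-34c averaged 54.8 CPM at 42 months, against 149 CPM at 6 months, a log2 change of -1.44 (SE 0.40, adjusted p 0.0109). Both calls held without any single library, in a test that called 35.5% of miRNAs, and both were lost when libraries rich in epithelial miRNAs were left out or such content was a covariate (values given with those miRNAs). For miR-34a the change was -0.19 (SE 0.15, adjusted p 0.327), and an interval of 2 SE on either side ran from -0.49 to 0.10. The ranges of the 5 libraries overlapped between these ages for every member, while 26.9% of all miRNAs had ranges that did not overlap.

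At 24 against 6 months, the pair of ages with no transgene named, miR-34b changed by -1.04 (SE 0.35, adjusted p 0.0301) and miR-34c by -1.18 (SE 0.39, adjusted p 0.0301). miR-34a was at 0.08 (SE 0.15, adjusted p 0.651). The test called 32.0% of miRNAs. The calls of the pair rested on several libraries: without replicate 1 at 6 months the change was -0.76 for miR-34b (adjusted p 0.0996) and -0.87 for miR-34c (0.0967). The adjusted p also rose above 0.05 for both without replicate 5 at 6 months or replicate 3, 4 or 5 at 24 months, and for miR-34b without replicate 2 at 24 months. A fit of the 10 libraries alone gave 0.0562 for miR-34b and 0.0531 for miR-34c, and limma-voom 0.0768 and 0.0710.

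The other ages stood close to these values. At 36 against 6 months miR-34b changed by -1.16 (SE 0.35, adjusted p 0.0255), was called, and miR-34c by -1.06 (SE 0.39, adjusted p 0.0707) was not, in a test that called 15.7% of miRNAs. Without replicate 1 at 36 months these changes were -1.60 for miR-34b and -1.62 for miR-34c, and both were called (adjusted p 7.08e-04 and 0.00153). That fit called 47 of 198 miRNAs at 36 against 6 months. miR-34c was also called without replicate 2 at 6 months (0.0295), with library totals as the scaling (0.0340) and with DESeq2 (0.0303). Without replicate 1 or 5 at 6 months, or any of replicates 2 to 5 at 36 months, miR-34b was not called (adjusted p from 0.0540 to 0.0939), and in a fit of the 10 libraries alone its adjusted p was 0.107. At 12 against 6 months miR-34b changed by -1.05 (SE 0.35, adjusted p 0.0431) and miR-34c by -0.90 (SE 0.39, adjusted p 0.0998), where 14.2% of miRNAs were called. The call of miR-34b at 12 months was lost without any one of 7 libraries: replicates 1, 4 and 5 at 6 months, replicates 2, 3 and 5 at 12 months and replicate 1 at 42 months (adjusted p from 0.0503 to 0.125). It was also lost with limma-voom (0.0802) and in a fit of the 10 libraries alone (0.0678). The libraries rich in epithelial miRNAs included replicates 1, 2 and 5 at 6 months and 3, 4 and 5 at 12 months. Without them the change at 12 months was -0.60 for miR-34b (adjusted p 0.248) and -0.39 for miR-34c (0.545). With epithelial and skin content as covariates it was -0.12 for miR-34b (0.789) and 0.15 for miR-34c (0.775), where the direction of miR-34c turned.

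Among 12, 24, 36 and 42 months the 6 pairs of ages gave no call for any member, with edgeR, DESeq2 or limma-voom, and the lowest unadjusted p in edgeR was 0.0534. These tests called 10.2% of miRNAs at 24 against 12 months, 4.06% at 36 against 12, 16.8% at 42 against 12, 4.57% at 36 against 24, 1.02% at 42 against 24 and 0.508% at 42 against 36 months. Changes of miR-34b in these pairs lay between -0.21 (42 against 24 months) and 0.01 (24 against 12 months). The lowest adjusted p of miR-34c among them was 0.372, at 42 against 12 months with a change of -0.54 (SE 0.39). miR-34a came closest at 36 against 24 months, at -0.30 (SE 0.15, adjusted p 0.228). Among the later ages no difference was therefore called, which does not show that the levels were equal.

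**Figure D2:**
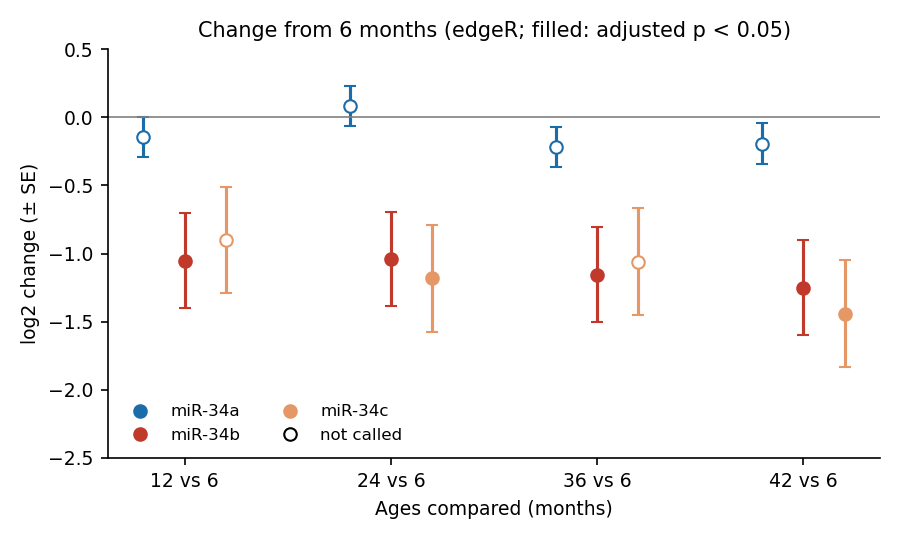
Log2 change from 6 months (vertical axis, with SE) at 12, 24, 36 and 42 months for the 3 members. Filled points passed an adjusted p of 0.05 in edgeR. miR-34b and miR-34c lie between -0.90 and -1.44 at every age, and miR-34a between -0.22 and 0.08.

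That the pair was called and miR-34a was not does not show that they differ, so the ratio of the count of miR-34a to the summed count of miR-34b and miR-34c was taken within each library, where scaling plays no part. The ratio in the 5 libraries at 42 months was 2.80, 2.05, 2.69, 2.18 and 4.68. At 6 months it was 0.758, 2.97, 1.60, 1.60 and 0.925. In counts, which are not molar levels, miR-34a was thus outnumbered by the pair in none of the libraries at 42 months. It was outnumbered in 2 at 6 months, and the ages overlapped through replicate 2 at 6 months. The only other library under 1 was replicate 1 at 36 months, at 0.982, and the highest ratio was 5.79 in replicate 4 at 24 months.

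On the log2 scale the ratio was 0.48 ± 0.77 in the 6-month libraries, 1.15 ± 0.52 in those of 12 months and 1.51 ± 0.59 in those of 24 months, with 1.39 ± 0.83 for 36 and 1.46 ± 0.47 for 42 months (mean and SD, n = 5 each). As a share of the family's counts, miR-34a took 57.8% ± 12.5 at 6 months and between 68.5% and 73.4% on average at the later ages. The difference was 0.98 at 42 against 6 months and 1.03 at 24 against 6 months (two-sided exact permutation p 0.0556 for each, adjusted over 10 pairs of ages 0.278). At 36 and 12 against 6 months it was 0.91 and 0.66 (exact permutation p 0.0952 and 0.183, adjusted 0.317 and 0.456). The smallest p that all splits of 5 against 5 libraries can give is 0.00794. Without replicate 2 at 6 months the differences at 42 and 24 months were 1.25 and 1.299, each at an adjusted p of 0.0397. The other 24 single omissions left both uncalled, with an adjusted p of up to 0.556. The lowest differences among them were 0.76 at 42 and 0.77 at 24 months.

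Across the 25 libraries the log2 ratio of miR-34a to the pair had a slope on age of 0.26 per year (SE 0.11), with a Pearson's r of 0.43 (permutation p 0.0312, adjusted over 4 relations 0.0654) and a Spearman's rho of 0.40 (permutation p 0.0488, adjusted 0.0654). The relation rested on replicates 1 and 5 at 6 months, the libraries farthest from the median: without them r was 0.26 (permutation p 0.223). Without the 6-month group r was 0.17 (adjusted p 0.562). Without replicate 1 at 36 months r was 0.54 (adjusted p 0.0222), and without replicate 2 at 6 months 0.48 (adjusted p 0.0478). The other 23 single omissions left r uncalled, with an adjusted p of up to 0.113.

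Within the pair, miR-34b and miR-34c had nearly equal counts and moved together. Reads that match both hairpins, whose treatment is not stated, may add to this likeness. The tests below cannot set such reads apart from the levels of each miRNA. Over 25 libraries their log2 CPM had a Pearson's r of 0.968 and a Spearman's rho of 0.936 (permutation p 1e-05 for each, the smallest that 100000 permutations can give, adjusted over 6 tests 3e-05), and r was 0.936 without the 2 libraries farthest from the median. Centred on the mean of each age, r was 0.974. For miR-34a no relation passed the test: r was 0.09 with miR-34b and 0.06 with miR-34c (permutation p 0.675 and 0.787).

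The balance within the pair was close to even, to which reads that match both hairpins may also add. miR-34b made up 49.6%, 51.4%, 51.2%, 52.9% and 50.0% of the pair's counts at 6 months and 50.9%, 44.7%, 47.8%, 46.6% and 48.7% at 12 months. At 24 months its share was 51.2%, 49.9%, 55.1%, 55.7% and 54.9%, and at 36 months 46.3%, 57.4%, 48.2%, 48.7% and 51.3%. At 42 months it was 53.3%, 52.5%, 53.8%, 55.4% and 54.6%. The 5 libraries at 42 months thus all lay above all 5 at 12 months. The exact 95% Clopper-Pearson interval of the share lay above 50% in 8 libraries, of which 4 were at 42 and 3 at 24 months, below 50% in 3 libraries, and included 50% in the other 14. These intervals, too, cover counting error only, and are no test between ages. At 42 months that of replicate 1, 49.8% to 56.8%, spanned all 5 shares of its age.

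On the log2 scale the ratio of miR-34b to miR-34c was 0.06 ± 0.08 in the 6-month libraries, -0.13 ± 0.13 in those of 12 months and 0.20 ± 0.15 in those of 24 months, with 0.02 ± 0.25 for 36 and 0.23 ± 0.07 for 42 months (mean and SD, n = 5 each). The difference was 0.36 at 42 against 12 months (exact permutation p 0.00794), 0.32 at 24 against 12 months (0.0159) and 0.17 at 42 against 6 months (0.0159), each at 0.0529 after adjustment over the 10 pairs of ages. None of these passed the threshold. Leaving out some single libraries brought all of them to an adjusted p of 0.0397, among them replicate 1 at 12 months and replicate 2 at 36 months. Leaving out the latter changes none of their exact p-values, only the adjustment. Of 25 such omissions, 22 left 42 against 12 months uncalled, 22 left 42 against 6 and 23 left 24 against 12. The adjusted p then rose to at most 0.0794, 0.0794 and 0.106. With age over all libraries r was 0.38 (permutation p 0.0581, adjusted 0.0654) and rho 0.38 (permutation p 0.0654, adjusted 0.0654). Without replicate 1 at 36 months r was 0.47 and rho 0.45 (adjusted p 0.0301 for each). The other 24 omissions left both uncalled, with an adjusted p of up to 0.129.

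**Figure D3:**
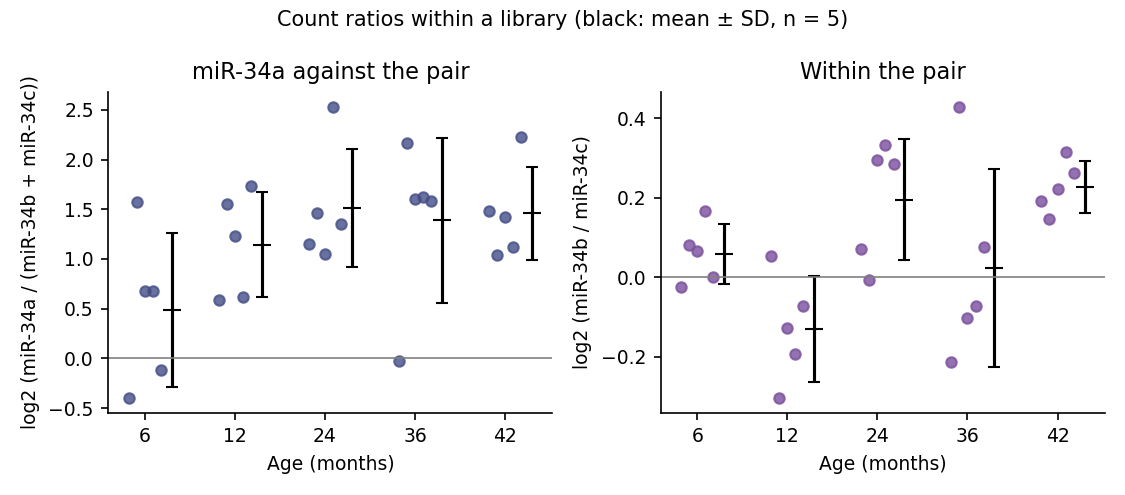
Log2 of the count of miR-34a over the summed count of miR-34b and miR-34c (left) and of miR-34b over miR-34c (right) in each library by age in months, with mean and SD over 5 libraries in black. On the left, 2 libraries at 6 months and 1 at 36 months lie below 0. On the right, all 5 libraries at 42 months lie above 0, and 4 of 5 at 12 months below it.

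The miRNAs most like each member were taken by Pearson correlation of log2 CPM over the 25 libraries, with no test since they were picked as the highest, and all points share the scaling of their library. For miR-34b these were miR-183 (r 0.79), miR-182 (0.78) and miR-96 (0.76), which are made from a shared cluster in sensory hair cells and photoreceptors, and miR-429b (0.74) and miR-200c (0.71) of the epithelial miR-200 family. For miR-34c the same 5 came first, from miR-182 (0.80) and miR-183 (0.79) to miR-429b (0.78), miR-96 (0.78) and miR-200c (0.76). After centring on each age these 5 were still among the top 5 for both members, at r from 0.62 to 0.71. By rank correlation miR-182, miR-183 and miR-96 held ranks 1 to 4, while miR-429b and miR-200c held ranks between 11 and 29.5. For miR-34a the nearest were the muscle miR-1 (0.58), miR-30e (0.58), miR-30c (0.51), miR-218a (0.50) of motor neurons and the muscle miR-133a (0.45). By rank correlation miR-218a held only rank 26 (rho 0.30), and the others ranks 1 to 4 with miR-30e first. After centring on each age miR-30e held rank 1 and miR-218a rank 10.

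The content of these miRNAs differed between libraries of the same brain tissue. The summed CPM of the 6 miRNAs of the miR-200 family, on library totals, ranged from 472 to 9033 at 6 months, 141 to 2900 at 12, 90.1 to 348 at 24, 135 to 8123 at 36 and 71.9 to 462 at 42 months, and no member was at 0 in any library. In the trend 0 of the 6 were called in edgeR, 0 had an unadjusted p under 0.05, and DESeq2 called 0 and limma-voom 3. At 42 against 6 months 6 of 6 fell in edgeR, which called 35.5% of all miRNAs there, and limma-voom called 5. The sum of miR-182, miR-183 and miR-96 ranged from 2929 to 21516 CPM at 6 months, 2072 to 6892 at 12, 1573 to 5937 at 24, 680 to 18844 at 36 and 1704 to 2664 at 42 months. None of these 3 was at 0 in any library either. In the trend 0 of 3 were called in edgeR, although 3 had an unadjusted p under 0.05 and DESeq2 and limma-voom called all 3, and 3 of 3 fell at 42 against 6 months. The 3 libraries with a miR-200 sum above 8000 CPM were replicates 1 and 5 at 6 months and replicate 1 at 36 months, the same libraries in which miR-34b and miR-34c were highest. In these 3 libraries the pair summed to 523, 426 and 306 CPM, beside at most 233 CPM in any other. That value was in replicate 4 at 6 months, where the miR-200 sum was 472 CPM. The next highest miR-200 sum, 2900 CPM in replicate 4 at 12 months, went with 186 CPM of the pair. Replicate 2 at 6 months had a miR-200 sum of 1301 CPM and the lowest pair of its age, 129 CPM. In bulk tissue fewer cells of a type and less RNA per cell cannot be told apart.

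**Figure D4:**
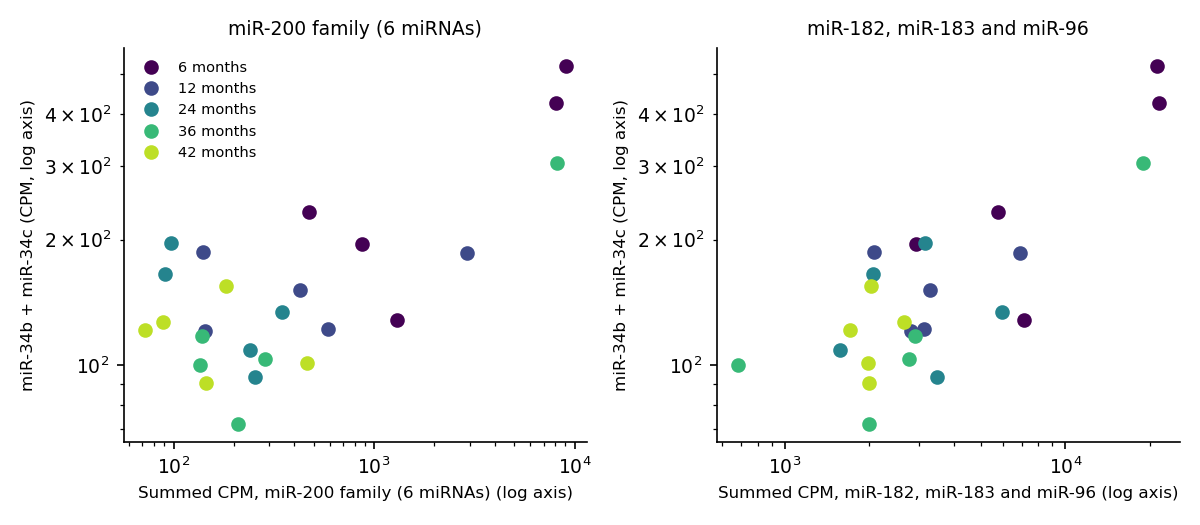
Summed CPM of miR-34b and miR-34c (vertical, log axis) against the summed CPM of the miR-200 family (left) and of miR-182, miR-183 and miR-96 (right, both log axes) in the 25 libraries, coloured by age. The 3 libraries at the upper right of both panels are replicates 1 and 5 at 6 months and replicate 1 at 36 months.

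Markers of the labelled tissue were high throughout. The 6 neuronal miRNAs (miR-9, miR-124, miR-128, miR-129, miR-137 and miR-138) summed to between 121990.5 and 169395 CPM per library, and in the trend edgeR called 0 of 6, with 1 at an unadjusted p under 0.05 and 1 called by DESeq2 and by limma-voom. Of the oligodendrocyte miRNAs miR-338 rose in the trend and miR-219 was not called, where 15 of 197 miRNAs were called as rising. Among markers of other cells, 3 of 3 of skin fell in the trend, as did 2 of 2 of red blood cells (miR-144 and miR-451), 3 of 5 of muscle and 1 of 3 of endocrine cells (miR-375). Over all miRNAs 13.7% were called as falling. Of these lists, in the same order, DESeq2 called 3, 2, 4 and 2, and limma-voom 3, 1, 2 and 0. Of the skin list, whose sum ranged from 57.1 to 471 CPM at 42 months and from 488 to 3861 CPM at 6 months, and of the red blood cell list, at 584 to 872 CPM at 42 months and 1299 to 2711 CPM at 6 months, no member was at 0 in any library. None of the leukocyte (4 tested), liver and gut (3 tested) or choroid plexus, eye and pigment (2 tested) miRNAs was called in the trend in edgeR. Of these 9, 1 in the last list had an unadjusted p under 0.05 and was called by DESeq2, and limma-voom called 0. At 42 against 6 months edgeR called 35.5% of all miRNAs. There 3 of 3 liver and gut miRNAs rose in edgeR, with a median log2 change of 1.82, while limma-voom called 1. Their list summed to between 170.5 and 1275 CPM at 42 months and between 154 and 420 CPM at 6 months. The median of this sum was 195 CPM at 6, 666 at 12, 328 at 24, 228 at 36 and 676 at 42 months. It includes 1 miRNA that was not tested and was at 0 in some library at 6 months.

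The pair was tested again with these contents set aside. Without the 7 libraries in which the miR-200 family, or the 3 of the skin list (miR-205, miR-203a and miR-203b), summed to above 2000 CPM, which left 2 libraries at 6 months, the slope was -0.24 for miR-34b (SE 0.08, adjusted p 0.0765) and -0.28 for miR-34c (SE 0.08, adjusted p 0.0418), so that miR-34c was still called. The change at 42 against 6 months was then -0.78 for miR-34b and -0.88 for miR-34c (adjusted p 0.0615 for each). In this setting 11 of 199 miRNAs were called in the trend and 24 at 42 against 6 months. The 7 libraries were replicates 1, 2 and 5 at 6 months, 3, 4 and 5 at 12 months and replicate 1 at 36 months. With the log2 sums of both lists as covariates in all 25 libraries the slopes were -0.25 (SE 0.08, adjusted p 0.0368) for miR-34b and -0.26 (SE 0.08, adjusted p 0.0504) for miR-34c. With the sum of miR-182, miR-183 and miR-96 as the covariate, chosen after their likeness to the pair was seen, they were -0.11 (SE 0.08, adjusted p 0.464) and -0.14 (SE 0.08, adjusted p 0.304), and neither was called. At 42 against 6 months the change was -0.67 for miR-34b and -0.69 for miR-34c with the epithelial and skin covariates (adjusted p 0.172 and 0.200), and -0.44 and -0.50 with the covariate of miR-182, miR-183 and miR-96 (adjusted p 0.368 and 0.36). The slope of miR-34a lay between -0.03 and -0.06 in the same 3 settings. The calls of the pair at 24 against 6 months were likewise lost in all 3 settings. At 36 against 6 months both members were called without the 7 libraries, in a test that called 29 of 199 miRNAs. Their changes were -1.14 for miR-34b (adjusted p 0.0108) and -1.08 for miR-34c (0.0254). Neither was called at 36 months with the epithelial and skin covariates (-0.75, adjusted p 0.0641, and -0.59, adjusted p 0.187) or with that of miR-182, miR-183 and miR-96 (-0.64, adjusted p 0.207, and -0.48, adjusted p 0.371). The part that this other content had in the fall of the pair was not tested further.

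**Figure D5:**
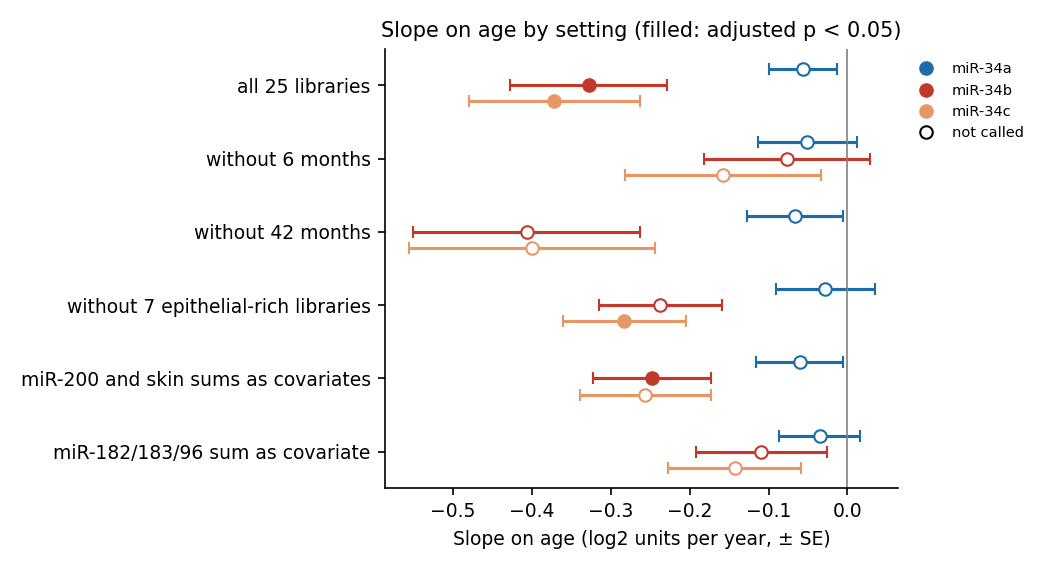
Slope on age (horizontal axis, log2 units per year, with SE) of the 3 members under 6 settings, with filled points for an adjusted p under 0.05 in edgeR. The slopes of miR-34b and miR-34c move from -0.33 and -0.37 with all libraries to -0.08 and -0.16 without the 6-month group, and that of miR-34a stays close to 0.

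Other miRNAs that p53 is known to induce or process in mammals gave a background for the family. Of 19 further names on this list, 16 were in the table and 15 were tested. In the trend 2 rose in edgeR, miR-15a and miR-22a, and 0 fell, with 4 at an unadjusted p under 0.05 in either direction and 3 called by DESeq2 and by limma-voom; the list had a median slope of 0.00 beside -0.01 over all 197 miRNAs. miR-15a, a repressor of cell-cycle genes, had a slope of 0.21 (adjusted p 0.0236) and miR-22a one of 0.10 (adjusted p 0.0397). miR-15b and miR-15c, which were not on the list, fell in the trend. Their slopes were -0.42 (adjusted p 1.81e-06) and -0.57 (adjusted p 3.44e-06). At 42 against 6 months 4 rose (miR-15a, miR-192, miR-194a and miR-22b) and 2 fell (miR-141 and miR-200c, which are also on the epithelial list), with a median change of 0.05 beside -0.02 over all miRNAs. At 24 against 6 months 1 rose and 2 fell. Over all 197 miRNAs edgeR called 21.3% in the trend, 35.5% at 42 and 32.0% at 24 against 6 months. Of all 197, 15 rose and 27 fell in the trend. At 42 against 6 months 28 rose and 42 fell, and at 24 against 6 months 27 rose and 36 fell. Of the 15 on the list, DESeq2 called 7 and limma-voom 3 at 42 against 6 months.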

How the data were processed

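The 25 brain libraries hold small RNA. The labels' protocols name total RNA and the TruSeq small RNA kit of Illumina for library preparation. The submitters' processing notes list SAMtools 1.3.1-9, BWA 0.7.12-r1039, Trimmomatic 0.36 and CASAVA 1.8.4. The counting program, annotation and genome build are not stated. The authors deposited 1 raw count per hairpin and library for 346 entries, all whole on inspection. All count columns matched a sample title.

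Entries that are copies of 1 miRNA were added up, giving 217 miRNAs, and filterByExpr (count minimum 10, total minimum 15) kept 197. The main test was the quasi-likelihood fit of edgeR 4.0.16 under R 4.3.3, with TMM factors, robust dispersion and all 25 libraries, and with age as a factor or in years. Each SE of a log2 change was derived from its F statistic and is approximate. Log2 CPM used a prior count of 2 for the miRNAs most like each member and for correlations centred on each age. The other correlations between members used no prior count. Ratios used counts plus 0.5, with exact permutation tests over every assignment of the 10 libraries to 2 ages, or 100000 permutations. limma 3.58.1 (voom) and DESeq2 1.42.0 were alternatives. Replicates are numbered in order of deposit and pair nothing.

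The members, marker lists and the p53 list, as well as the limits of 2000 and 8000 CPM, were chosen with earlier results of these data known. Named were the members, the 5 miRNAs most correlated with each and list members called in the trend. List members called in other comparisons, and miR-15b and miR-15c, were named after their values were seen.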

Additional observations from a re-analysis of the deposited data

Results flagged for a closer look

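In each age and measure the library at either end was compared with its nearest neighbour as a share of the age's range, against Dixon's critical value of 0.710 for 5 libraries. Of 25 groups so tested, 5 were past it. Chance gives about 1 in 20 for a single group, but the groups are not independent. miR-34b and miR-34c moved together, and the ratios use the same counts. The 5 therefore cannot be read as an excess over that rate. Replicate 1 at 36 months was far above the others of its age for miR-34b, at 142 CPM with the next at 60.3, and for miR-34c, at 164 CPM with the next at 57.2. Its log2 ratio of miR-34a to the pair was the lowest of its age, at -0.027 with the next at 1.58. The same library had a miR-200 sum of 8123 CPM, beside 287 CPM or less in the other 4 libraries of that age. Replicate 4 at 24 months had the highest log2 ratio of miR-34a to the pair, at 2.53 with the next at 1.47. Replicate 3 at 6 months had the lowest level of miR-34a of its age, at 313 CPM with the next at 373.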

How the results depend on the processing

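No paired analysis was possible because replicate numbers follow the order of deposit. DESeq2 size factors, both filters and unsummed copies kept every call of miR-34b and miR-34c for the trend, for any difference between ages and for 42 and 24 against 6 months. Library totals as the scaling kept them too, while the median change of all miRNAs went to -0.14 at 24 against 6 months, where it was 0.04 with TMM, and 16 of 68 calls at 42 against 6 months rose, where 28 of 70 did with TMM. At 36 against 6 months miR-34c was called with library totals (-1.17), DESeq2 (-1.09) and without the 7 epithelial-rich libraries (-1.08). DESeq2 called 49 miRNAs at 12 against 6 months, where edgeR called 28.

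Several calls of the pair were lost. With limma-voom miR-34b was at -0.85 at 12 months and -0.84 at 24 months against 6 months, and miR-34c at -0.98 at 24 months, and the adjusted p for any difference was 0.0660 for miR-34b and 0.0740 for miR-34c. In fits of 10 libraries miR-34b was at -1.06, -1.11 and -1.15 at 12, 24 and 36 months, and miR-34c at -1.25 at 24 months. Leaving out the 42-month group gave a slope of -0.41 for miR-34b and -0.40 for miR-34c, and 11 miRNAs called in the trend, beside 42 in all libraries. Leaving out the 6-month group gave slopes of -0.077 and -0.16, and 20 miRNAs called.

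Without the 7 epithelial-rich libraries miR-34b was at -0.60 at 12, -0.60 at 24 and -0.78 at 42 months, and at -1.14 at 36 months, where it stayed called (adjusted p 0.0108), with a slope of -0.24 and an adjusted p of 0.0692 for any difference. miR-34c was at -0.39, -0.66 and -0.88 at 12, 24 and 42 months, with 0.101 for any difference. This setting called 10 miRNAs at 12, 9 at 24, 29 at 36 and 24 at 42 months, 11 in the trend and 25 for any difference, beside 28, 63, 31, 70, 42 and 94. With the epithelial and skin covariates miR-34b was at -0.12, -0.48, -0.75 and -0.67 at 12, 24, 36 and 42 months (0.139 for any difference), and miR-34c at 0.15, -0.47, -0.59 and -0.69, with a slope of -0.26 (0.156 for any difference). This setting called 14, 7, 23 and 22 miRNAs at 12, 24, 36 and 42 months, 19 in the trend and 34 for any difference. With the covariate of miR-182, miR-183 and miR-96, chosen after seeing the data, miR-34b was at -0.47, -0.38, -0.64 and -0.44 at these 4 ages, with a slope of -0.11 (0.441 for any difference), and miR-34c at -0.23, -0.43, -0.48 and -0.50, with a slope of -0.14 (0.606 for any difference). It called 14, 15, 23 and 20 miRNAs at them, 20 in the trend and 58 for any difference. The cause of these losses was not tested.

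With each library left out in turn, miR-34b lay between -1.25 and -0.78 at 12, -1.23 and -0.76 at 24 and -1.60 and -0.87 at 36 months, with slopes between -0.38 and -0.24 and adjusted p-values for any difference between 0.00143 and 0.106. miR-34c lay between -1.37 and -0.87 at 24 and between -1.62 and -0.75 at 36 months, with slopes between -0.45 and -0.28 and adjusted p-values for any difference between 0.00178 and 0.133. The log2 ratio of miR-34a to the pair lay between 0.77 and 1.299 at 24 and 0.76 and 1.25 at 42 against 6 months, with r between 0.36 and 0.54 and rho between 0.33 and 0.46 on age. That of miR-34b to miR-34c lay between -0.23 and -0.14 at 12 and 0.15 and 0.20 at 42 against 6 months, with r between 0.34 and 0.47 and rho between 0.32 and 0.45. Calls over all miRNAs numbered 19 to 66 at 12, 24 to 66 at 24, 23 to 47 at 36 and 46 to 80 at 42 against 6 months. The lowest at 24 months was without its replicate 3, and the highest at 12 and 36 months without replicate 4 and replicate 1 of those ages. For the level of miR-34b, at 270 to 1984 counts per library, counting error is small beside the spread between libraries, which 5 libraries an age leave as the limit. This was not so for its share of the pair at 42 months, where the counting interval of replicate 1 spanned all 5 shares.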
